A study of Mus musculus with 8 samples.

Results

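Complement is a set of plasma and cell-surface proteins that mark targets and punch membranes, and the genes for 9 of its components and inhibitors were followed in mouse skin keratinocytes. The 9 were chosen by symbol, with the difference between the genotypes already known, and all 9 were found among the 24421 symbols counted. They are C1s1, C1ra, C4b and C2 of the classical pathway, the central component C3, factor B of the alternative pathway (Cfb), and the inhibitors Serping1, Cd55 and Cd59a. All 9 passed the filter on low counts that left 13016 genes for testing. Because the choice used this contrast, their differences between genotypes are given as a description and without p-values.

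In the classical pathway, the proteases C1r and C1s sit on C1q, and activated C1s cleaves C4 and C2 to form an enzyme that cleaves C3. Factor B supplies the protease of the equivalent enzyme in the alternative pathway, and both routes meet at C3 and lead to a pore in the target membrane. Most plasma complement comes from the liver, but keratinocytes, fibroblasts and macrophages also make components, and interferons and interleukin 6 are known to raise the transcription of several of them.

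Keratinocytes had been isolated from skin of InvEE K5 Cre+ HMGB1 fl/fl mice (knockout, 4 libraries) and InvEE K5 Cre- HMGB1 fl/fl mice (control, 4 libraries), all of strain CBA x C57Bl/6J. Every animal group therefore carried both the InvEE transgene, an activated MEK1 kinase driven by the involucrin promoter of the upper epidermis, and the floxed Hmgb1 alleles. K5-Cre, active in basal keratinocytes, was present in the knockouts alone, so an effect of Cre itself and of the loss of Hmgb1 cannot be told apart. The labels give no age, and they number the replicates without saying that each is a separate animal, so the spread may be partly technical.

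The libraries held 30506676 to 34229030 counts on genes. Levels are given as CPM, the counts of a gene scaled to a common library size with TMM factors, and a fold change is on the log2 scale, knockout over control, with the standard error (SE) of the fit. Hmgb1 was at 113.4 to 126.2 CPM in the knockouts and 565.5 to 615.0 CPM in the controls (log2 fold change -2.32, SE 0.09, edgeR adjusted p = 3.576e-07). The 8 basal keratinocyte markers, such as Krt5 and Krt14, summed to 49600 to 59200 CPM in knockouts and 49500 to 56600 CPM in controls. Y-linked transcripts were present in knockout replicate 1 and control replicates 2 and 3, at 6110 to 6743 counts, against at most 51 counts in the other libraries. The groups thus differed in the number of libraries with such transcripts, 1 of 4 knockouts and 2 of 4 controls. In bulk samples, fewer cells of a type and less RNA per cell cannot be told apart.

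C1s1, C3 and C1ra were lower in the knockout, C2 was higher, and the other members overlapped between the genotypes. Of the 9 members, 3 were called lower and 1 higher at an edgeR adjusted p under 0.05 over all tested genes. Across those genes 8.87% were called, 4.54% lower and 4.33% higher, and since the members were proposed from this contrast nothing is read from the comparison. These shares rest on 591 genes lower and 563 higher, counts that were 262 and 200 without knockout replicate 2 and 303 and 247 without control replicate 2. With unscaled library totals they were 997 and 370. CPM did not overlap between the genotypes for the same 4 members. Among all tested genes this held for 17.0%. The median log2 fold change was 0.71 over the 9 members and -0.02 over all tested genes. The member median is the value of Serping1, which was not called, and the members ran from -2.84 (C1s1) to 2.36 (C2).

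**Figure D1:**
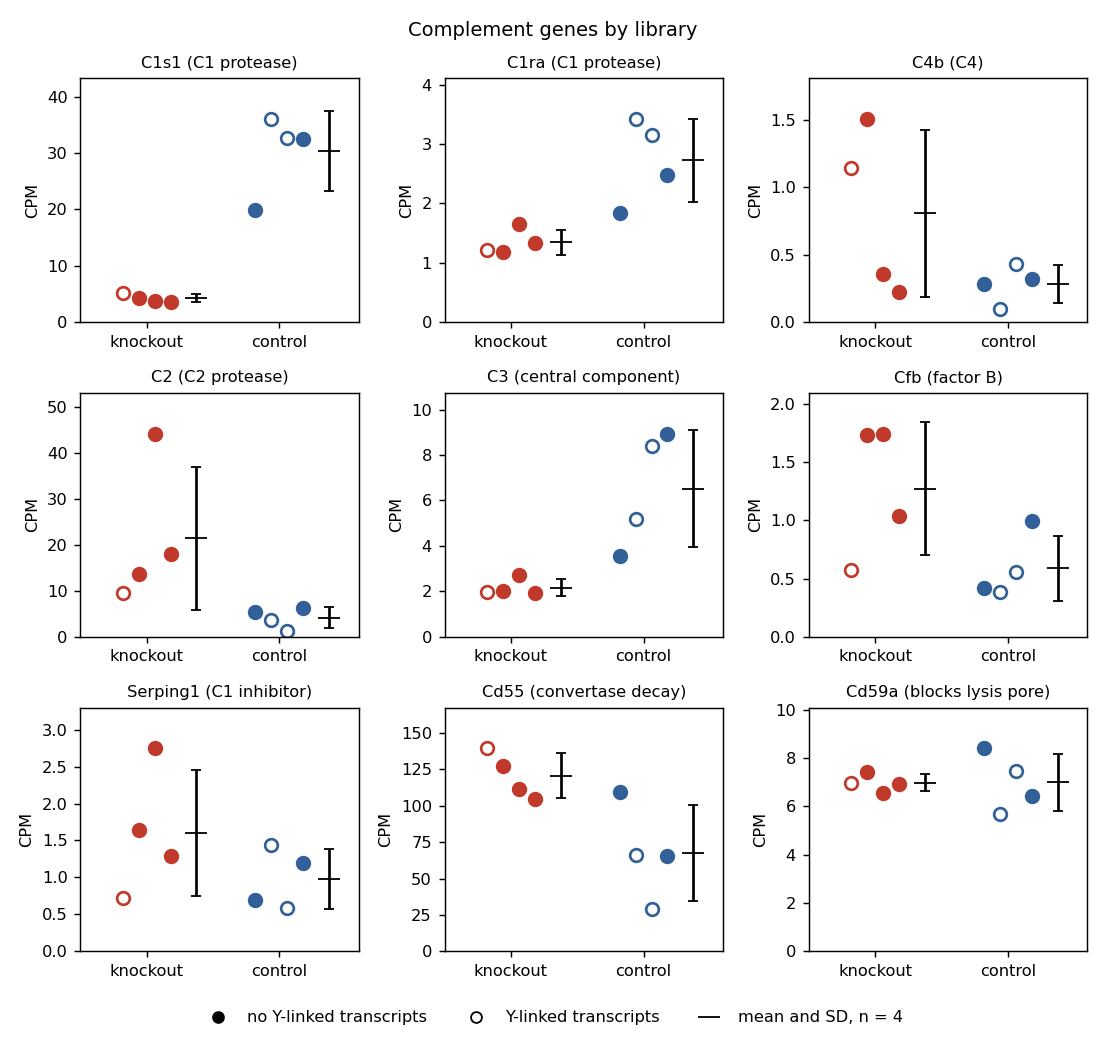
CPM of the 9 complement genes in each knockout library (red, left) and control library (blue, right), each panel on its own linear axis from 0. Open points are libraries with Y-linked transcripts, and bars give the mean and SD of 4 libraries. C1s1, C1ra and C3 lie lower in every knockout library than in any control, and C2 lies higher.

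The C1 proteases were both lower, C1s1 far more than C1ra. C1s1 (chromosome 6, 124530345 to 124542359, minus strand, mm10), the protease that cleaves C4 and C2, was at 5.19, 4.35, 3.82 and 3.54 CPM in knockout replicates 1 to 4. In control replicates 1 to 4 it was at 19.9, 36.0, 32.7 and 32.5 CPM. The knockout libraries lay close together, and the lowest control was still well above the highest of them. C1s1 averaged 4.22 ± 0.729 CPM in knockouts and 30.3 ± 7.10 CPM in controls (SD, n = 4 each), 7.17-fold lower (log2 -2.84, SE 0.20). It was called lower in all 20 alternative fits, with log2 fold changes of -3.00 to -2.74.

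C1ra (chromosome 6, 124512405 to 124523443, plus strand), which activates C1s, was at 1.22, 1.18, 1.65 and 1.33 CPM in knockout replicates 1 to 4. In control replicates 1 to 4 it was at 1.84, 3.42, 3.14 and 2.48 CPM. The highest knockout library was just below the lowest control. C1ra averaged 1.34 ± 0.214 CPM in knockouts and 2.72 ± 0.705 CPM in controls (SD, n = 4 each), 2.02-fold lower (log2 -1.01, SE 0.25). Among the 8 leave-one-out fits it was called in the 2 without knockout replicate 3 or control replicate 1. With the 5 libraries without Y-linked transcripts its log2 fold change was -0.64, and it was not called.

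C1ra and C1s1 are neighbours that point towards each other, with 6901 bases between their annotated ends. The ratio of C1s1 to C1ra CPM was 4.26, 3.69, 2.31 and 2.67 in knockout replicates 1 to 4, and 10.8, 10.5, 10.4 and 13.1 in control replicates 1 to 4. It averaged 3.23 ± 0.902 in knockouts and 11.2 ± 1.27 in controls (SD, n = 4 each), and the groups did not overlap. The log2 difference of the mean ratios was -1.79, and -1.96 to -1.66 with 1 library left out. Since both genes are measured in the same library, this ratio does not depend on how libraries are scaled.

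**Figure D2:**
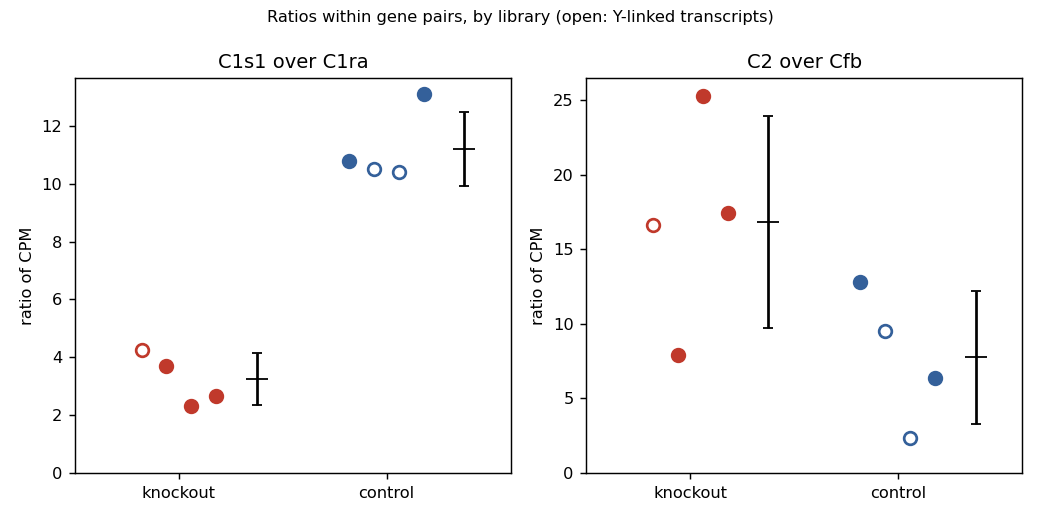
Ratio of the CPM of C1s1 to C1ra (left panel) and of C2 to Cfb (right panel) in each library, knockouts in red on the left of each panel and controls in blue. Open points are libraries with Y-linked transcripts, and bars give the mean and SD of 4 libraries. The C1s1 to C1ra ratio is at 2.31 to 4.26 in knockouts and 10.4 to 13.1 in controls, while the C2 to Cfb ratios overlap.

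C3 (chromosome 17, 57203970 to 57228136), whose cleavage products coat targets and draw phagocytes, was at 1.97, 2.00, 2.72 and 1.93 CPM in knockout replicates 1 to 4. In control replicates 1 to 4 it was at 3.55, 5.18, 8.41 and 8.94 CPM. Every knockout was below every control, and the controls differed among themselves more than the knockouts did. C3 averaged 2.15 ± 0.377 CPM in knockouts and 6.52 ± 2.59 CPM in controls (SD, n = 4 each), 3.02-fold lower (log2 -1.60, SE 0.29). It was called lower in all 8 leave-one-out fits. In the 5 libraries without Y-linked transcripts its log2 fold change was -1.49, and it was not called.

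The promoters of these 3 genes are shown because they are the members that were lower together. The RefSeq table (GRCm38.p6, the assembly of mm10) gave a window of 250 bases before to 50 bases after the start for 5 of the 9 members, where the start is that of RefSeq. It is the same base as the GENCODE start of the gene for C1s1 and C3, but for C1ra it lies 216 bases downstream, so that most of that window is inside the GENCODE gene. Capitals mark letters that match any of 5 motifs, searched on both strands. These were an interferon response element (GAAA, any 2 bases, GAAA), a STAT-type element (TTCNNNGAA), an NF-kB type element (GGGA, any 2 bases, TTCC), a C/EBP type element (TTGCNNAA) and the TATA-box letters (TATAAA).
C1s1 (chr6:124542310-124542609, - strand): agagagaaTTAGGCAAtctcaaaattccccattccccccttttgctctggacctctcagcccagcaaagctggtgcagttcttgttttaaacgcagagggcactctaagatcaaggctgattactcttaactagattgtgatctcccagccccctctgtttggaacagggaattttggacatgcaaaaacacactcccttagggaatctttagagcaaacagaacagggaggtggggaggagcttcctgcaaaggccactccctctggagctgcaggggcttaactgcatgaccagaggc
C1ra (chr6:124512371-124512670, + strand): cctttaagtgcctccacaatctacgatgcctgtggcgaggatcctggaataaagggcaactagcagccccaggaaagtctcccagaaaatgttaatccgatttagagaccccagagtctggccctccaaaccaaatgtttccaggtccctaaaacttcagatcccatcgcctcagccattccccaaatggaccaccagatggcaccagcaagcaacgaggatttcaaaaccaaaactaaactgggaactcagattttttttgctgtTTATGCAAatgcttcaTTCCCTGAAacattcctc
C3 (chr17:57228087-57228386, - strand): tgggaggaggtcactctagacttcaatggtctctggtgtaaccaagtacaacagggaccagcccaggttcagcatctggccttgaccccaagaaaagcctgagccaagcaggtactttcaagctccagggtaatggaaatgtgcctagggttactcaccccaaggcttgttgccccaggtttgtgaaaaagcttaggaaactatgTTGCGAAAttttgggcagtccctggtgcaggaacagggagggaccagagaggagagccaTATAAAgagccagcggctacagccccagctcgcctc

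Each of the 3 windows holds the C/EBP type letters once: at bases 9 to 16 for C1s1, 267 to 274 for C1ra and 206 to 213 for C3, counted from the 5′ end of the window. These letters occur in 10.8% of 27025 promoter windows of the same length. The C1ra window also holds the STAT-type letters at bases 283 to 291, which occur in 8.47% of windows, and the C3 window the letters TATAAA at bases 265 to 270, which occur in 14.2%. Both C1ra matches, 16 and 32 bases after the RefSeq start, and the TATAAA of C3, 14 bases after it, are downstream of the start. The C/EBP type letters of C1s1 and C3 are upstream of it. No match to the interferon response element (3.49% of windows) or the NF-kB type element (1.43%) is in these 3 windows. Of the other windows, that of Cd59a holds the interferon response letters and that of Cd55 none of the 5. C2, Cfb, C4b and Serping1 had no window and were not searched. A match is a description of the letters and not a site.

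Interleukin 6 and its targets were measured beside them, as 13 genes of interleukin 6 signalling and the acute phase. The acute-phase genes Saa1, Saa2, Saa3 and Hp had at most 8 counts in a library and were not tested. Of 9 tested, 3 were lower, 0 were higher and 6 were not called, where 4.54% of all tested genes were called lower. Of the 6, Il6ra, Stat3 and Osmr had log2 fold changes of 0.26, 0.25 and 0.13. The others, Il6st, Lifr and Lcn2, were at -0.07, -0.42 and -0.95. The median log2 fold change of the 9 was -0.42. The count of 3 lower was 1 without knockout replicate 4 and 2 or 3 without any other library. Il6 was at 1.12 ± 0.264 CPM in knockouts and 3.28 ± 1.39 CPM in controls (log2 -1.55, SE 0.34, edgeR adjusted p = 0.0223). Socs3, the feedback inhibitor that this cytokine induces, was at 305 ± 13.8 CPM in knockouts and 469 ± 81.1 CPM in controls (log2 -0.62, edgeR adjusted p = 0.01445). Lbp, an acute-phase protein that binds lipopolysaccharide, was at 0.301 ± 0.218 CPM in knockouts and 1.53 ± 0.753 CPM in controls (SD, n = 4 each, edgeR adjusted p = 0.02111). It had few counts, 4, 5, 19 and 9 in knockout replicates 1 to 4. Il6, Socs3 and Lbp had the smallest p of the list and were picked for it. That all 3 were lower in every knockout library than in any control follows partly from this choice. Their part in the levels of C1s1, C1ra and C3 was not tested.

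C2 was the member that was higher. C2 (chromosome 17, 34862604 to 34898265), the protease that joins C4 in the C3-cleaving enzyme, was at 9.49, 13.8, 44.2 and 18.1 CPM in knockout replicates 1 to 4. In control replicates 1 to 4 it was at 5.36, 3.64, 1.29 and 6.34 CPM. Knockout replicate 3 was far above the other knockouts and control replicate 3 far below the other controls, yet the groups did not overlap. C2 averaged 21.4 ± 15.6 CPM in knockouts and 4.16 ± 2.21 CPM in controls (SD, n = 4 each), 5.13-fold higher (log2 2.36, SE 0.60). Its call was lost in all 8 leave-one-out fits, with log2 fold changes of 1.73 (without knockout replicate 3) to 2.64. With the 5 libraries that had no Y-linked transcripts its log2 fold change was 2.12, and it was not called.

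Interferon-stimulated genes were measured beside C2 in each library. Of 25 such genes tested, 18 were higher, 0 were lower and 7 were not called, where 4.33% of all tested genes were called higher. The median log2 fold change of the 25 was 1.88. Their mean log2 CPM, centred over the 8 libraries, was 0.01, 0.90, 1.86 and 0.90 in knockout replicates 1 to 4, and -1.53, -0.27, -1.52 and -0.35 in control replicates 1 to 4. C2 on the same scale was at 0.24, 0.77, 2.45 and 1.17 in those knockouts and at -0.58, -1.13, -2.58 and -0.34 in those controls. Knockout replicate 3 was highest and knockout replicate 1 lowest of the knockouts on both. Control replicate 1 had interferon genes as low as control replicate 3 but not a C2 as low. The count of 18 was 1 without knockout replicate 2, 3 without control replicate 1 or 3, 5 without knockout replicate 4, 8 without control replicate 2 or 4, 9 without knockout replicate 3 and 21 without knockout replicate 1. The part of the interferon genes in the C2 level was not tested.

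Mx2, an antiviral GTPase of that list, averaged 19.3 ± 7.10 CPM in knockouts and 3.66 ± 1.90 CPM in controls (log2 2.40, edgeR adjusted p = 0.01067). Irf9, which joins the STAT proteins in the factor that interferon activates, averaged 131 ± 30.8 CPM in knockouts and 51.5 ± 17.5 CPM in controls (log2 1.34, edgeR adjusted p = 0.01683). Dhx58, a regulator of RNA sensing, averaged 33.6 ± 17.5 CPM in knockouts and 6.86 ± 3.10 CPM in controls (SD, n = 4 each, edgeR adjusted p = 0.02111). These 3 had the smallest p of the list and were picked for it. Knockout replicate 3 was the highest library for each of them.

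**Figure D3:**
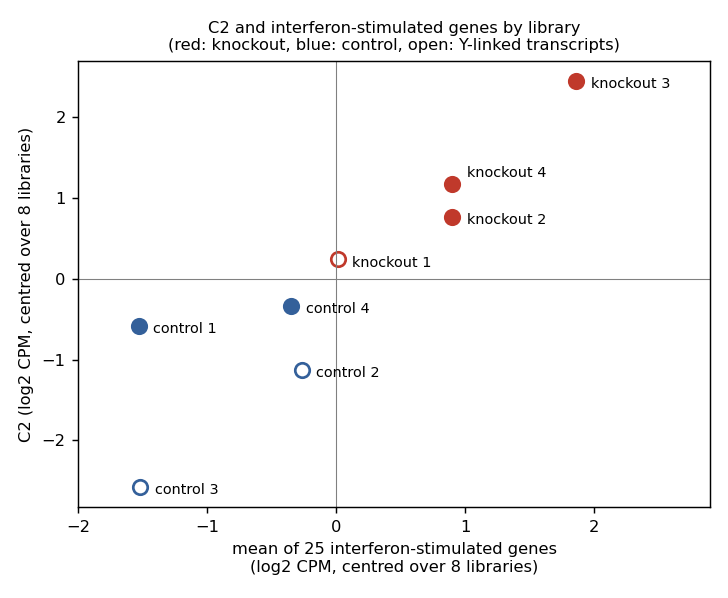
Each point is a library, with the mean log2 CPM of 25 interferon-stimulated genes on the x axis and that of C2 on the y axis, both centred over the 8 libraries. Knockouts (red) lie above 0 on both axes and controls (blue) below 0, with knockout replicate 3 at 1.86 and 2.45 and control replicate 3 at -1.52 and -2.58.

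Factor B lies next to C2 on chromosome 17 (34856374 to 34862518), 85 bases apart on the same strand, and did not pass the test. Cfb was at 0.573, 1.74, 1.75 and 1.04 CPM in knockout replicates 1 to 4, and at 0.419, 0.383, 0.555 and 0.993 CPM in control replicates 1 to 4. Knockout replicate 1 lay among the controls and the other 3 knockouts above all of them. Cfb averaged 1.27 ± 0.572 CPM in knockouts and 0.588 ± 0.28 CPM in controls (SD, n = 4 each, log2 1.11, SE 0.42). The ratio of C2 to Cfb was 7.92 to 25.3 in knockouts and 2.33 to 12.8 in controls, and so overlapped. The annotation also holds a transcript unit that spans both genes, which was not among the symbols counted.

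C4b (chromosome 17, 34728380 to 34743882), which encodes the C4 that C1s cleaves, had few counts. It had 32, 46, 11 and 7 counts in knockout replicates 1 to 4, or 1.15, 1.51, 0.356 and 0.221 CPM. In control replicates 1 to 4 it had 10, 3, 14 and 11 counts, or 0.279, 0.0959, 0.431 and 0.321 CPM. Knockout replicates 1 and 2 were above all controls and the other 2 knockouts lay within their range. C4b averaged 0.807 ± 0.619 CPM in knockouts and 0.282 ± 0.14 CPM in controls (SD, n = 4 each), and its log2 fold change of 1.49 (SE 0.62) was not called. Without knockout replicate 2 it was 0.99. C4a, a neighbouring copy of C4b 65209 bases away, was at 0.852 to 2.18 CPM in knockouts and 0.927 to 2.46 CPM in controls (log2 -0.43, edgeR adjusted p = 0.5125). Reads of these near-identical copies could be split between them, so each count is uncertain. The ratio of C2 to C4b was 8.28 to 124 in knockouts and 3.00 to 38.0 in controls.

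The soluble and membrane inhibitors did not pass the test. Serping1 (chromosome 2, 84765387 to 84775444), which inactivates C1r and C1s, was at 0.716, 1.64, 2.75 and 1.29 CPM in knockout replicates 1 to 4, and at 0.698, 1.44, 0.585 and 1.20 CPM in control replicates 1 to 4. Knockout replicate 3 was the highest and the groups overlapped. Serping1 averaged 1.60 ± 0.855 CPM in knockouts and 0.980 ± 0.405 CPM in controls (SD, n = 4 each), with a log2 fold change of 0.71 (SE 0.42), or 0.32 without knockout replicate 3.

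Cd55 (chromosome 1, 130439027 to 130462744), which speeds the decay of the C3-cleaving enzymes on the cell's own membrane, was the most abundant member per length. It was at 139.5, 127.5, 111.5 and 104.6 CPM in knockout replicates 1 to 4. In control replicates 1 to 4 it was at 109.5, 66.5, 28.8 and 65.8 CPM. Control replicate 1 lay inside the range of the knockouts, and control replicate 3 was far below every other library. Cd55 averaged 121 ± 15.8 CPM in knockouts and 67.7 ± 33.0 CPM in controls (SD, n = 4 each), with a log2 fold change of 0.84 (SE 0.33) that was not called. It was called without control replicate 1, at 1.17. DESeq2 also called it, at 0.86, as did limma-voom with quality weights, at 0.90. Its log2 fold change was 0.39 in the 5 libraries without Y-linked transcripts.

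Cd59a (chromosome 2, 104095801 to 104115354), which blocks the last step of pore assembly, was at 6.98, 7.43, 6.56 and 6.95 CPM in knockout replicates 1 to 4, and at 8.41, 5.69, 7.46 and 6.43 CPM in control replicates 1 to 4. All knockouts lay within the range of the controls. Its means were 6.98 ± 0.355 CPM in knockouts and 6.99 ± 1.19 CPM in controls (SD, n = 4 each), and the log2 fold change of 0.00 had an SE of 0.15. The other near copies of members had few counts. Cd59b had at most 9 counts in a library, Cd55b at most 8, C1s2 at most 7 and C1rb at most 1.

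**Figure D4:**
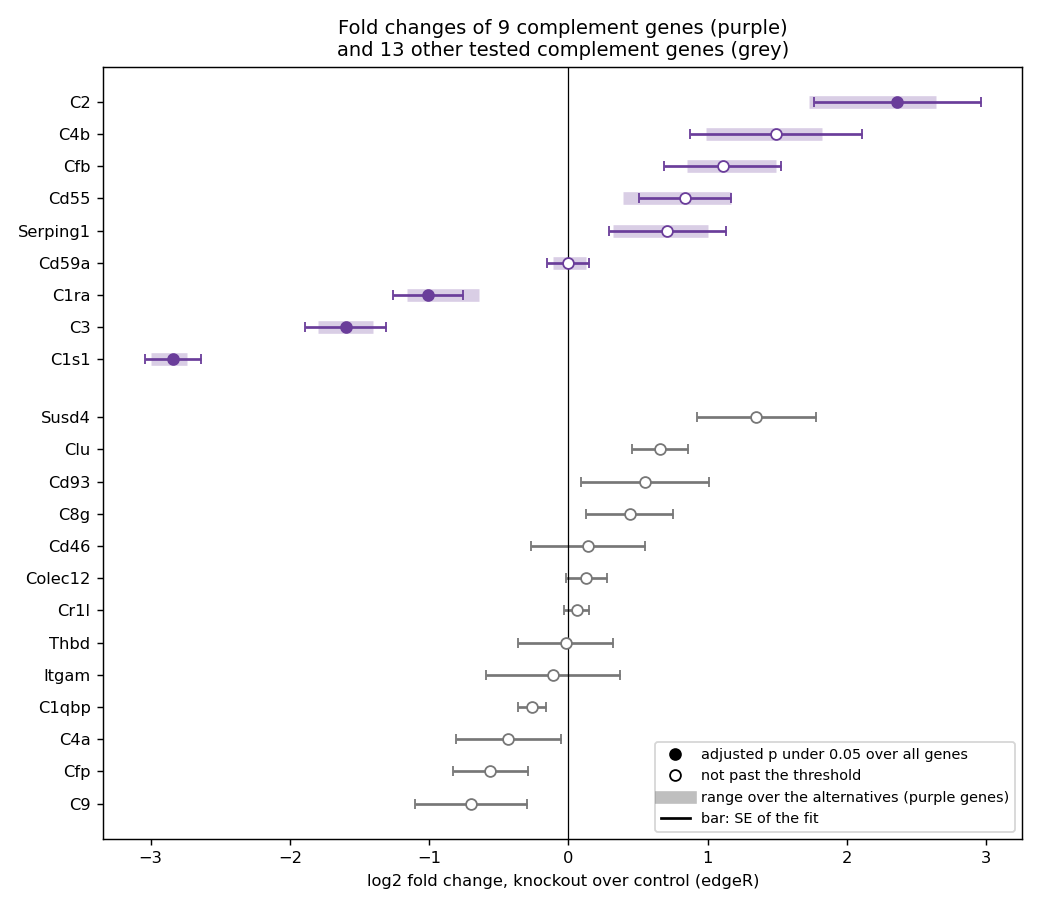
Log2 fold change, knockout over control, with its SE, for the 9 members (purple) and 13 other tested complement genes (grey), filled where the edgeR adjusted p was under 0.05. Pale bands span the alternative fits of a member. C2 is at 2.36, C1ra, C3 and C1s1 are at -1.01, -1.60 and -2.84, and no grey point is filled. The grey genes are those left after the members were chosen with this contrast known.

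Levels of different genes were compared per kilobase of exon, with exon lengths from GENCODE M21. In knockouts Cd55 led at 24.9 ± 3.24 CPM per kilobase, followed by C2 at 5.53 ± 4.04, Cd59a at 3.85 ± 0.196 and C1s1 at 1.35 ± 0.233 (SD, n = 4 each). In controls Cd55 was at 13.9 ± 6.80 CPM per kilobase, C1s1 at 9.68 ± 2.27, Cd59a at 3.86 ± 0.656, C3 at 1.27 ± 0.503 and C2 at 1.07 ± 0.571. C1s1 was thus the second most abundant member per length in controls and the fourth in knockouts. Cd55 and C1s1 overlapped in controls, and C2 and Cd59a overlapped in knockouts. The lower members were C1ra, C3, Serping1 and Cfb, at means of 0.418 to 0.688 CPM per kilobase in knockouts, where all 4 overlapped with one another. In controls C1ra was at 0.913 ± 0.237 CPM per kilobase, Serping1 at 0.421 ± 0.174 and Cfb at 0.208 ± 0.0992. C4b was the least abundant in both genotypes, at 0.142 ± 0.109 CPM per kilobase in knockouts and 0.0495 ± 0.0245 in controls.

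**Figure D5:**
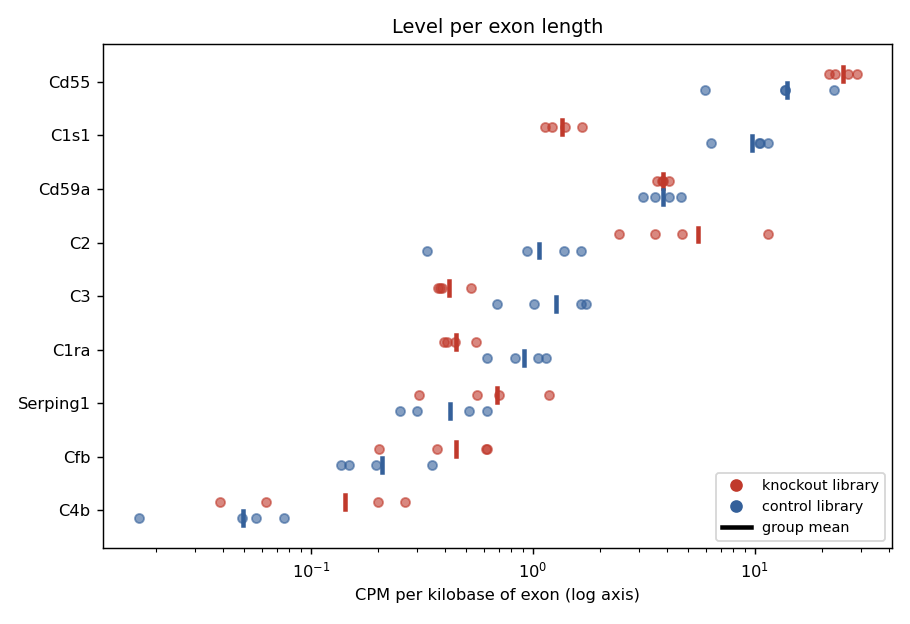
CPM per kilobase of exon of the 9 members on a log axis, with knockout libraries in red above control libraries in blue and a vertical mark at each group mean. Cd55 has the highest mean in both genotypes and C4b the lowest, and the mean of C1s1 is 1.35 in knockouts and 9.68 in controls.

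The rest of the pathway was examined through 51 further complement genes, listed by their place in the cascade after the 9 members had been taken out. Of these, 13 had enough counts to be tested, and 0 were called by edgeR or limma-voom, with 3 at an unadjusted edgeR p under 0.05. Across all tested genes edgeR called 8.87%. Since the members were taken out with this contrast known, the 0 called follows partly from that choice, and nothing is read from it. Among all 13016 tested genes, 3412 were at an unadjusted edgeR p under 0.05, so nothing is read from the 3 of 13. Of the further complement genes DESeq2 called 2, Clu and Susd4, both higher. Limma-voom with quality weights called Clu higher and C1qbp lower. The median log2 fold change of the 13 was 0.06.

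Both tested genes of the classical and lectin routes, C4a and Colec12, a scavenger receptor of the collectin family, did not pass. Colec12 was at 10.6 ± 1.70 CPM in knockouts and 9.65 ± 1.32 CPM in controls (log2 0.13, SE 0.15). C1q, the recognition unit that the C1 proteases bind, was not testable: C1qa, C1qb and C1qc had 0 to 48 counts in knockouts and 0 to 39 in controls. C1qb was highest in knockout replicate 2 at 48 counts and control replicate 3 at 35, and was at 0 in knockout replicate 4 and control replicate 2. The lectins Mbl1, Mbl2, Fcnb and Colec10 had 0 counts in every library, where a count of 0 allows a level of up to 0.0838 to 0.107 CPM (3 counts, counting error only). Masp1 and Masp2, the proteases of the lectin route, had at most 6 counts.

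In the alternative route Cfp, properdin, which stabilises the C3-cleaving enzyme, was at 1.25 ± 0.391 CPM in knockouts and 1.85 ± 0.349 CPM in controls (log2 -0.56, edgeR adjusted p = 0.2199). Cfd, the protease that cleaves factor B, and Cfi, which cuts C3b, had at most 1 count. Of the terminal components, Hc, which encodes C5, had at most 2 counts. C8g was at 1.32 ± 0.199 CPM in knockouts and 0.965 ± 0.419 CPM in controls, and C9 was at 0.642 ± 0.307 CPM in knockouts and 1.05 ± 0.402 CPM in controls (SD, n = 4 each). C6, C7, C8a and C8b had at most 4 counts.

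Among the other regulators, Thbd (thrombomodulin, an anticoagulant receptor) was at 51.1 ± 21.6 CPM in knockouts and 51.9 ± 20.5 CPM in controls. Cr1l, the rodent membrane regulator Crry, was at 42.5 ± 2.14 CPM in knockouts and 40.7 ± 3.80 CPM in controls (log2 0.06, SE 0.09, SD, n = 4 each). Clu (clusterin, which binds the terminal complex) and Susd4 are given because DESeq2 called them, chosen after their values were seen. Clu was at 45.3 ± 8.90 CPM in knockouts and 28.7 ± 7.45 CPM in controls (log2 0.66, edgeR adjusted p = 0.06551), with the lowest knockout at 36.3 CPM and the highest control at 37.8 CPM. Susd4, a membrane regulator, was at 0.573 to 1.55 CPM in knockouts and 0.123 to 0.543 CPM in controls (log2 1.35, edgeR adjusted p = 0.07684). Among the receptors C1qbp, a C1q-binding protein found mostly in mitochondria, was at 73.8 ± 8.12 CPM in knockouts and 88.6 ± 7.80 CPM in controls (log2 -0.26, edgeR adjusted p = 0.1322). Itgam, a chain of complement receptor 3, was at 0.805 ± 0.301 CPM in knockouts and 0.866 ± 0.493 CPM in controls.

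Other cell types that make complement left uneven traces, small beside the basal keratinocyte markers. They were not small beside C1ra, C3, C4b, Cfb and Serping1, which were at 0.0959 to 8.94 CPM over the libraries. The 8 macrophage and monocyte markers summed to 8.27, 16.8, 4.72 and 3.25 CPM in knockout replicates 1 to 4, and to 5.75, 3.04, 10.5 and 4.06 CPM in control replicates 1 to 4. Knockout replicate 2 and control replicate 3 were the highest of their groups for these markers and also for C1qb and C4b. The 8 fibroblast markers summed to 40.6, 29.8, 22.4 and 18.1 CPM in knockouts and to 22.3, 28.7, 57.9 and 32.7 CPM in controls. None of the 8 was at 0 in all libraries, though Pdgfrb was at 0 in every knockout, and the groups overlapped. Fbln1 was the largest term of this sum in every library, at 14.7 to 19.1 CPM in knockouts and 16.3 to 46.8 CPM in controls. In knockout replicate 1 Col1a1, Col1a2 and Col3a1 were at 8.91, 8.59 and 4.87 CPM, the highest of any library. Of the 5 tested, Dcn was called higher and 4 did not pass (median log2 fold change 0.10). The part of these cells in the members' levels was not tested.

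Markers of further cell types are given as sums. Langerhans and dendritic cell markers (6 genes) summed to 28.6 to 77.1 CPM in knockouts and 26.9 to 88.1 CPM in controls. The endothelial markers (5 genes) summed to 0.189 to 0.97 CPM in knockouts and 0.543 to 2.09 CPM in controls. Melanocyte markers (5 genes) summed to 6.09 to 7.50 CPM in knockouts and 5.81 to 6.61 CPM in controls. Adipocyte markers (4 genes) reached 0.143 CPM in knockouts and 0.739 CPM in controls, with Lep at 0 in every library. Mast cell markers (5 genes) reached 0.179 CPM in knockouts and 0.0639 CPM in controls, with Cpa3, Tpsb2 and Ms4a2 at 0. Of the neutrophil markers, summing to 5.14 to 6.84 CPM in knockouts and 3.80 to 10.4 CPM in controls, Cxcr2 gave most, Retnlg was at 0, and Mpo and Elane had at most 2 counts. Of the T cell markers, Thy1 gave nearly all of 239 to 337 CPM in knockouts and 173 to 243 CPM in controls, while Cd3e, Cd3d and Cd3g had at most 15 counts. The suprabasal keratinocyte markers (8 genes) summed to 14400 to 18700 CPM in knockouts and 8540 to 13500 CPM in controls, without overlap. Krt10 had the highest mean of the 8, at 9022 ± 1300 CPM in knockouts and 5094 ± 1270 CPM in controls (SD, n = 4 each). Krt10 and Sbsn were called higher and 6 were not called, where 4.33% of all tested genes were called higher. Krt1, Krtdap, Dsg1a, Dsc1 and Lor overlapped between the groups.

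The genes whose profiles over the 8 libraries lay nearest to a member were found by the root mean square difference of log2 CPM, each profile centred on its own mean. Nearest to C1s1 were Dnajc6 at 0.31, Stfa3 at 0.32 and Hmgb1 at 0.36, where the median over all tested genes was 1.44. Nearest to C2 were Apol7a at 0.31, Ddx60 at 0.42 and Ifi27l2b at 0.42, where the median was 1.45. C3 was nearest to Camk4 at 0.24, Trabd2b at 0.30 and A3galt2 at 0.31, and C1ra to Hip1 at 0.07, Fzd3 at 0.12 and Timp2 at 0.17. The medians for C1s1 and C2 lay near the SD of the member's own profile, 1.53 for each, and so largely follow how far the member itself moved. The measure includes the difference between the genotypes and is a description of these 8 libraries.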

How the data were processed

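RNA sequencing of keratinocytes gave 8 libraries, 4 knockout and 4 control. The deposited files hold whole-number counts per gene symbol, unnormalized. The submitters' processing notes name the mm10 assembly, TopHat2 2.1.0, Trimmomatic 0.35, FastQC 0.11.4 and SAMtools 0.1.18. How reads were counted, on which annotation and with or without strand, is not given in the sources used here. Reads of a member and of a gene on the opposite strand therefore cannot be told apart, which in the annotation touches C1s1, Cd55 and C2. Knockout replicate 4 was identified by its title, which carries another number than its file. Lines for reads outside genes (15.7 to 21.75% of each total) and ambiguous reads (0.918 to 1.11%) entered neither library sizes nor tests.

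Genes were filtered with filterByExpr, libraries scaled by TMM, and genotype tested with edgeR's quasi-likelihood test (edgeR 4.0.16, R 4.3.3), adjusted by Benjamini-Hochberg over 13016 genes with a threshold of 0.05. The SE is the size of the log2 fold change divided by the square root of F. Centred log2 CPM used a prior count of 2. The steps were run on simulated counts that gave every gene the same dispersion and changed only genes with higher counts. That setting is unlike C2, whose libraries spread widely, and unlike low-count members such as C4b, so it does not bear on their calls. Alternatives were DESeq2 1.42.0, limma-voom (limma 3.58.1), other scalings, filters and dispersion, a replicate block, a term for Y-linked transcripts, the 5 libraries without them, and each library left out. Members, lists and alternatives were chosen with earlier results of these data known. The genes named were the members and their near copies, Hmgb1, every other complement gene called or else the 2 most abundant tested of each list, 3 of each comparison list by p, and 3 nearest profiles per member. The replicate numbers did not pair the libraries. Coordinates are from GENCODE M21, which is on the mm10 assembly.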

Additional observations from a re-analysis of the deposited data

Results flagged for a closer look

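In 3 of 46 groups of 4 libraries tested for a library far from the others, 1 library stood apart, and chance flags about 1 in 20 groups. C3 was at 2.72 CPM in knockout replicate 3, against 2.00 CPM in the next highest knockout, and was still below every control. C9 was at 1.10 CPM in knockout replicate 3, against 0.524 CPM in the next highest knockout. C8g was at 1.59 CPM in control replicate 1, against 0.799 CPM in the next highest control.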

How the results depend on the processing

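C1s1, C4b, Cfb, Serping1 and Cd59a kept their side of the threshold in every alternative that gave a value, C3 in 19 of 20, Cd55 in 17, C1ra in 11 and C2 in 7. C4b was left with no value by the filter of 1 CPM in 4 libraries. Members called higher were 2 under DESeq2 and 2 under limma-voom with quality weights. They were 0 without the low-count filter, under upper-quartile scaling, unscaled totals or the replicate block, or in the 5 libraries without Y-linked transcripts, and 0 to 1 with 1 library left out. Members called lower were 1 in the 5 libraries without Y-linked transcripts and 2 to 3 with 1 library left out. Other complement genes called higher were 2 with DESeq2, 1 with limma-voom with quality weights and 0 to 1 with 1 library left out, and 1 was called lower with quality weights. Over all genes, 563 were higher and 591 lower. These counts were 1084 and 919 under DESeq2, 955 and 957 with quality weights, 370 and 997 with unscaled totals, and 375 and 348 with the replicate block. They were 141 and 242 for the 5 Y-negative libraries, and 200 to 678 and 262 to 569 with 1 library left out. Among the fits with 1 library left out they were lowest without knockout replicate 2, and were 247 and 303 without control replicate 2. Unscaled totals moved the median log2 fold change of all genes to -0.13 (-0.02 with TMM). Interferon-stimulated genes called higher, 18 of 25, were 10 with unscaled totals, 5 with no filter, 9 with the block, 5 with a term for Y-linked transcripts, 6 for the Y-negative libraries and 1 to 21 with 1 library left out. Genes of the interleukin 6 and acute-phase list called lower were 2 with the filter of 1 CPM in 4 libraries and 4 with unscaled totals. They were 1 to 3 with 1 library left out, and 1 without knockout replicate 4. The cause of these moves was not tested. Deviations of same-numbered libraries correlated at -0.23 to -0.05 and 0 of 8 libraries correlated best with their own number, so the replicate block pairs libraries that share a number alone. Under it C2 had a log2 fold change of 2.17 and C1ra of -0.99, neither called. C4b had the fewest counts of the members, 3 to 46 in a library.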

Other observations

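The nearest profiles of the remaining members, by the same root mean square difference over 8 libraries, are given as values. Those of Serping1 were Ube2l6 at 0.18, Nmi at 0.25 and Trim12c at 0.26, where the median over all tested genes was 0.70. Those of Cd55 were Slco4a1 at 0.19, Fdft1 at 0.20 and Pmvk at 0.24, with a median of 0.74. Both medians lay near the SD of the member's own profile, 0.71 for Serping1 and 0.75 for Cd55. Cfb was nearest to Gm11992 at 0.25, and to Ccdc113 and Rhou, both at 0.31. C4b was nearest to Mfsd7c at 0.36, Slc39a2 at 0.40 and Tspan8 at 0.44. Cd59a was nearest to Ift46 at 0.08 and to Mettl22 and Clcn3, both at 0.09. Summed over the 9 members, the level was 139 to 175 CPM in knockouts and 83.4 to 150 CPM in controls, and the groups overlapped. Cd55 was the highest term of the sum in every library but control replicate 3, where C1s1 was at 32.7 CPM and Cd55 at 28.8 CPM.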
